A study of Drosophila melanogaster with 30 samples.

Results

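Small nucleolar RNAs (snoRNAs) and small Cajal body RNAs (scaRNAs) were followed in nuclear RNA of aged fly photoreceptors across 10 shRNA groups. The genes were selected on their own counts, as rows whose FlyBase symbol starts with snoRNA: or scaRNA: and that held at least 10 counts in at least 3 of the 30 libraries. Whether such a gene is counted often enough is therefore no finding, and counts and medians over the tested genes describe them only. Of 17807 gene rows, 274 carried such a symbol and 76 met the count rule. The other 198 rows held 4601 counts in all, and 50 of them had no count in any library. Of the 76, 64 also passed the expression filter of the test across all 14888 tested genes, and the remaining 12 are given by their levels alone. The prefix snoRNA: is left out of most names from here on.

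The samples were male outer photoreceptors, the cells of the eye that express the rhodopsin Rh1, and the nuclei were enriched with an antibody. All flies carried Rh1-GFPKASH, which tags the nuclear envelope, and Rh1-Gal4, an Rh1 promoter that drives the shRNA in these cells. The shRNA was directed against Spt5, dom, Trl, Top1, cnc, TH1, Cdk12, Taf1 or Spt6, and in the control group against LexA, which comes from bacteria and has no target in flies, so that every group expressed a hairpin. Each group had 3 libraries, labelled as biological replicates, from flies kept to day 30 at 25 C in 12 h of light and 12 h of dark. Whether replicates came from separate cohorts of flies was not given in the sources used here, so p-values measure the spread between these libraries. Groups were read from the sample titles, since in 6 groups the number at the end of the genotype label also counts up over the replicates.

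Box C/D snoRNAs guide the methylation of ribosomal RNA at the ribose, and box H/ACA snoRNAs guide the conversion of uridine to pseudouridine. Symbols starting with Me and Psi name these classes and the ribosomal RNA site they are paired with. The U3 snoRNA acts in the cleavage of the ribosomal precursor rather than as a modification guide, and scaRNAs guide the same modifications in the small nuclear RNAs of the spliceosome. Most fly snoRNAs lie in introns of other genes and are trimmed out of the spliced intron. Reads of unspliced host RNA that cover such a gene are counted with it, and in nuclear RNA these cannot be told apart from the mature small RNA.

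Libraries held 4064250 to 18024440 gene counts. The knockdown of the targeted genes could not be read from these counts, since none of the 9 targets was lower at an adjusted p under 0.05. Markers of outer photoreceptors summed to 24019 and 24334 CPM (library-size scaled counts) in Spt5 replicates 1 and 2, to 64619 CPM in Spt5 replicate 3, and to between 80922 and 87752 CPM in LexA. All 11 of these markers were detected, so the labelled cell type was present. In Spt5, 8 of the 11 fell at an adjusted p under 0.05 by edgeR, while 5.42% of all tested genes did. Among markers of other cells, 6 of 8 of other neurons, 6 of 8 of glia and 6 of 6 of cone and pigment cells rose. So did 4 of 4 of inner photoreceptors and 4 of 6 of fat body, while 11.0% of all tested genes rose. None of the 6 muscle markers passed in either direction. No marker of these lists was at 0 in all libraries of a group. The summed neuron markers were at 315 to 1080 CPM in Spt5 and at 238 to 327 CPM in LexA. In such bulk samples, fewer cells of a type and less RNA per cell cannot be told apart. Reads outside annotated features stood at 101 to 172 per 100 gene counts in Trl and at 79.3 to 92.4 in LexA.

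The 76 genes comprised 44 box H/ACA guides, 14 box C/D guides or U3 copies, 14 snoRNAs whose class is not in the symbol and 4 scaRNAs. The rule kept 38.3% of the annotated H/ACA rows and 13.7% of the C/D rows. The C/D genes kept had a median annotated length of 111.5 bases and the H/ACA genes kept 140 bases. Introns of annotated host genes held 63 of the 76, and 20 of these lay in 11 ribosomal protein genes. Of the 13 without a host, 5 lay inside a gene of the other strand: Me18S-G1506, Or-ACA7, Or-aca4, Or-ACA8 and Or-CD14. The strand setting of the counting was not given in the sources used here, so reads of those 5 and of the gene opposite cannot be told apart. At the edge of the rule, 10 of the 76 reached 10 counts in exactly 3 libraries, and 11 rows outside it did so in exactly 2 libraries. Only 11 genes reached 10 counts in all 30 libraries, and 7 reached it in libraries of 2 groups only. These are raw counts, which also depend on the depth of each library.

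A single gene dominated the class. scaRNA:MeU5-C46, a guide for methylation of the U5 small nuclear RNA, took 49.7% of all counts of the 76 genes, and the 10 highest genes together took 80.7%. It lies on the minus strand of chromosome 3R, at bases 7472907 to 7473222 of the BDGP6 assembly, in an intron of CG1142. Its library values were 383, 283 and 152 CPM in Spt5, 226, 433 and 345 CPM in dom, 80.4, 101 and 172 CPM in Trl, 154, 271 and 271 CPM in Top1, 216, 300.3 and 381 CPM in cnc, 277, 128 and 163 CPM in TH1, 127, 216 and 212 CPM in Cdk12, 409.8, 260.3 and 382 CPM in Taf1, 321, 382 and 405 CPM in Spt6, and 370.3, 207 and 288 CPM in LexA. Libraries of a group often differed by over 1.5 times, and Trl alone lay wholly below LexA. The exons of CG1142 stood at 1.9 to 4.59 CPM in Trl and at 3.35 to 5.96 CPM in LexA, below the scaRNA in their intron in every library of both groups. The other 3 scaRNAs were near the detection limit, with means over all libraries of 0.635 CPM for scaRNA:PsiU6-40 in skd, 0.479 CPM for scaRNA:MeU4-A65 in anchor and 0.404 CPM for scaRNA:PsiU2-55 in Prp8, and none was tested.

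The U3 copy U3:54Aa was next, with a mean of 68.6 CPM over all libraries, and its neighbour U3:54Ab on the same arm, 2R, averaged 13.01 CPM. U3:9B on the X chromosome averaged 3.23 CPM. These 3 copies are alike in length (210, 210 and 213 bases), and the authors' counting left out reads that align to several places, so the split between the copies is uncertain. Per kilobase of annotated length, the level was 835 CPM for MeU5-C46, 327 CPM for U3:54Aa and 124 CPM for Me28S-A1322, a C/D guide of 73 bases in an intron of eEF1alpha1, a translation elongation factor. The H/ACA guides Psi28S-291 in RpL3, Psi18S-525k in Msp300, Psi28S-3436b in RpL17 and Psi28S-2566 in CG3902 had 102, 87.2, 53.1 and 48.9 CPM per kilobase. Tudor-SN-a and lola-a, whose class the symbol does not give, had 58.8 and 51.8 CPM per kilobase, and U3:54Ab had 62.0. The median tested gene had a mean of 14.1 counts per library, which is the depth behind most values below.

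Summed over the 76 genes, the level, in CPM of all gene counts without TMM scaling, ran from 241 in Trl replicate 1 to 858 in Spt5 replicate 2. The sums were 773, 858 and 371 in Spt5, 553, 709.5 and 639 in dom, 241, 438 and 379.7 in Trl, and 599.7, 289 and 546 in LexA. LexA replicate 2 thus lay inside the range of the Trl libraries, and no knockdown group lay wholly outside the LexA range. Without MeU5-C46 the Trl sums were 143, 283 and 198 and those of LexA 268, 127 and 276. Top1, at 337, 417 and 332, then lay wholly above LexA. U3:54Aa alone was at 91.2, 228 and 124 CPM (TMM-scaled) in Top1 and at 71.3, 22.3 and 56.2 CPM in LexA. Of the 64 tested genes, 25 had a positive estimate in Top1, and their median log2 fold change was -0.33, so the higher sum does not describe most of them. MeU5-C46 held 35.2% to 48% of the counts of the 76 genes in Trl, 35.9% to 45% in Top1, 42.7% to 47.9% in TH1 and 40.7% to 43.7% in Cdk12, against 49.4% to 56.1% in LexA. In these 4 groups every library lay below every LexA library in this share.

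**Figure D1:**
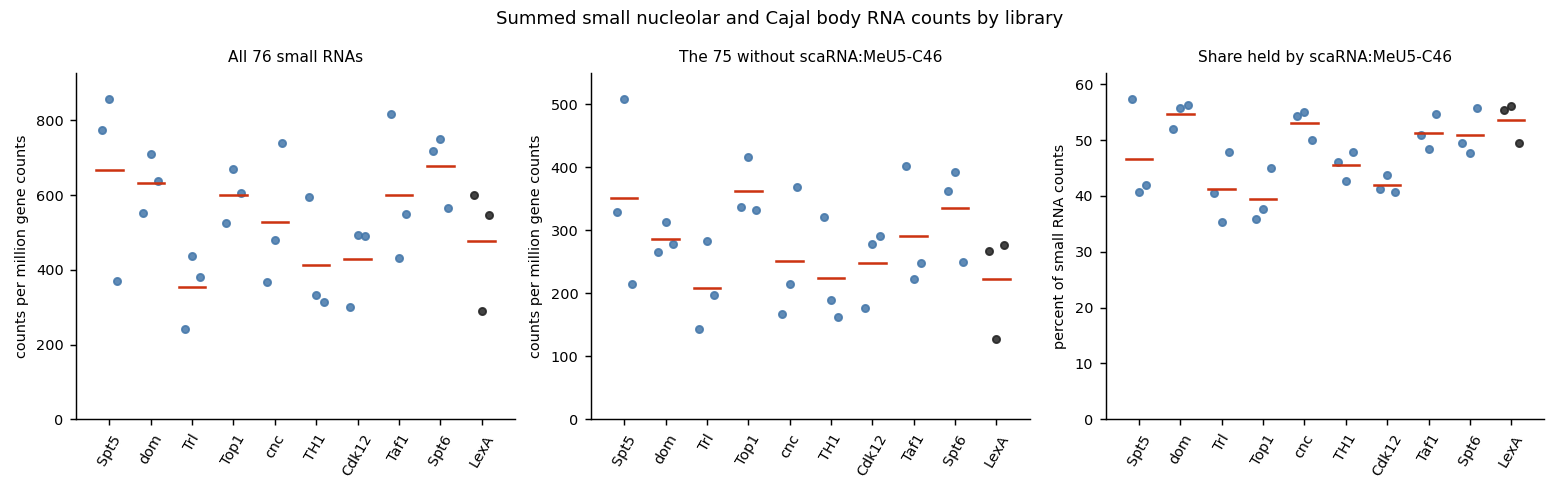
Summed counts of the 76 small RNA genes as CPM of all gene counts (left), the same without scaRNA:MeU5-C46 (middle) and the share of the summed counts held by scaRNA:MeU5-C46 in percent (right), for each library (points) with the group mean (red line). LexA is black, and its libraries at 599.7, 289 and 546 span most knockdown means on the left, while the shares of Trl, Top1, TH1 and Cdk12 lie below those of LexA on the right.

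All 9 comparisons share the same 3 LexA libraries, so a high or low LexA value touches each of them. With dom, a chromatin remodelling ATPase, as the target, 8 of the 64 tested genes passed an adjusted p of 0.05 against LexA, 6 higher and 2 lower. Over all tested genes, 10.4% passed, 4.37% higher and 6.0% lower. Trl, the GAGA factor, had 3 such genes, all lower, while 2.55% of all tested genes passed in either direction and 1.91% were lower. Spt5, an elongation factor subunit, had 1 higher and 1 lower, while 16.5% of all genes passed, 11.0% higher and 5.42% lower. The median log2 fold change of the 64 was -0.05 in dom, -0.43 in Trl and 0.09 in Spt5, while that of all tested genes was 0.21, 0.21 and 0.05.

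The 6 genes that rose in dom were 4 H/ACA guides, 1 C/D guide and Dek-a. Psi18S-176, an H/ACA guide paired with 18S ribosomal RNA that lies on 2R outside any annotated host, had 15.9, 34.8 and 22.2 CPM in dom against 2.71, 2.3 and 5.13 CPM in LexA. Its log2 fold change was 2.85 (SE 0.47, adjusted p 1.9e-04, n = 3 each). The lowest dom library was above each of the other 27 libraries, of which the highest was Taf1 replicate 1 at 7.63 CPM.

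Me28S-A1322 had the tightest replicates of the 6. Its values were 23.6, 24.6 and 25.2 CPM in dom and 10.3, 10.3 and 11.4 CPM in LexA (change of 1.2 on the log2 scale with SE 0.30 and adjusted p 0.01). The highest library outside dom was Cdk12 replicate 1 at 12.4 CPM. The exons of its host eEF1alpha1 were at 617, 1507 and 1481 CPM in dom and at 808, 695 and 1019 CPM in LexA, which did not pass the test (change of 0.52 on the log2 scale, adjusted p 0.44).

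Psi28S-1180, an H/ACA guide in tou, a gene for a chromatin remodelling subunit, was at 5.23, 8.77 and 7.49 CPM in dom against 0.722, 0.886 and 1.97 CPM in LexA (change of 2.58 on the log2 scale with SE 0.74 and adjusted p 0.023). Psi28S-3342, an H/ACA guide on the X chromosome with no annotated host, was at 3.95, 11.3 and 6.75 CPM in dom and 1.62, 0.354 and 1.58 CPM in LexA (change of 2.62 on the log2 scale with SE 0.76 and adjusted p 0.025). Dek-a, in the gene of the chromatin protein Dek, was at 3.03, 10.2 and 6.26 CPM in dom and 1.62, 0.709 and 1.78 CPM in LexA (change of 2.24 on the log2 scale with SE 0.67 and adjusted p 0.029). For these 3, as for Psi18S-176 and Me28S-A1322, all dom libraries lay above all 27 others. The hosts tou (log2 fold change -0.19) and Dek (-0.41) did not pass the test, with adjusted p of 0.63 and 0.19.

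Psi28S-2566, the H/ACA guide in CG3902, was at 15.9, 40.4 and 27.3 CPM in dom and 8.49, 4.07 and 13.4 CPM in LexA (change of 1.69 on the log2 scale with SE 0.50 and adjusted p 0.028). Here dom replicate 1 lay inside the range of other knockdown groups, whose highest library was Spt6 replicate 2 at 26.9 CPM. Psi28S-3342 and Dek-a reached 10 counts in no LexA library, so their LexA level rests on few reads, 2 to 9 counts for Psi28S-3342 and 4 to 9 for Dek-a.

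Psi18S-525k and lola-a fell in dom. Psi18S-525k lies in Msp300, a giant protein of the nuclear envelope, and stood at 6.15, 5.58 and 4.94 CPM in dom against 16.1, 18.6 and 14.8 CPM in LexA (change of -1.57 on the log2 scale with SE 0.45 and adjusted p 0.022). The exons of Msp300 also fell (change of -0.82 on the log2 scale, adjusted p 0.028). lola-a lies in lola, a locus of many transcription factor isoforms, and stood at 5.69, 7.66 and 5.85 CPM in dom against 13.2, 8.86 and 11.4 CPM in LexA (change of -0.80 on the log2 scale with SE 0.26 and adjusted p 0.047). Without dom replicate 1 or 3, without LexA replicate 1 or 3 or in a fit of the 6 libraries alone, lola-a no longer passed (adjusted p 0.10 to 0.18). Against the mean of the other 8 knockdown groups its log2 fold change was -0.37 (adjusted p 0.27).

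Counting genes whose 3 libraries all lay above or below those of LexA, dom had 10 above and 5 below among the 64, while 15.6% and 13.3% of all tested genes did so. The count of 8 fell to 3 without dom replicate 2, 2 without dom replicate 3, 3 without LexA replicate 1 or 2, and 5 without LexA replicate 3. Psi18S-176 and Me28S-A1322 passed in each of the 14 alternatives run for them. Without dom replicate 3, none of the other 6 passed, and each of these lost its call without at least 1 LexA library as well. DESeq2 gave no adjusted p for Psi28S-1180 and Dek-a in dom, whose unadjusted p were 1.9e-04 and 6.0e-04. Markers of other neurons summed to 343 to 543 CPM in dom against 238 to 327 CPM in LexA. Of these 8 markers, 2 rose, while 4.37% of all tested genes did. Markers of outer photoreceptors summed to 54572 to 69959 CPM against 80922 to 87752 CPM. Of these 11 markers, 2 fell, while 6.0% of all tested genes did. The part of both marker sets in these results was not tested.

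**Figure D2:**
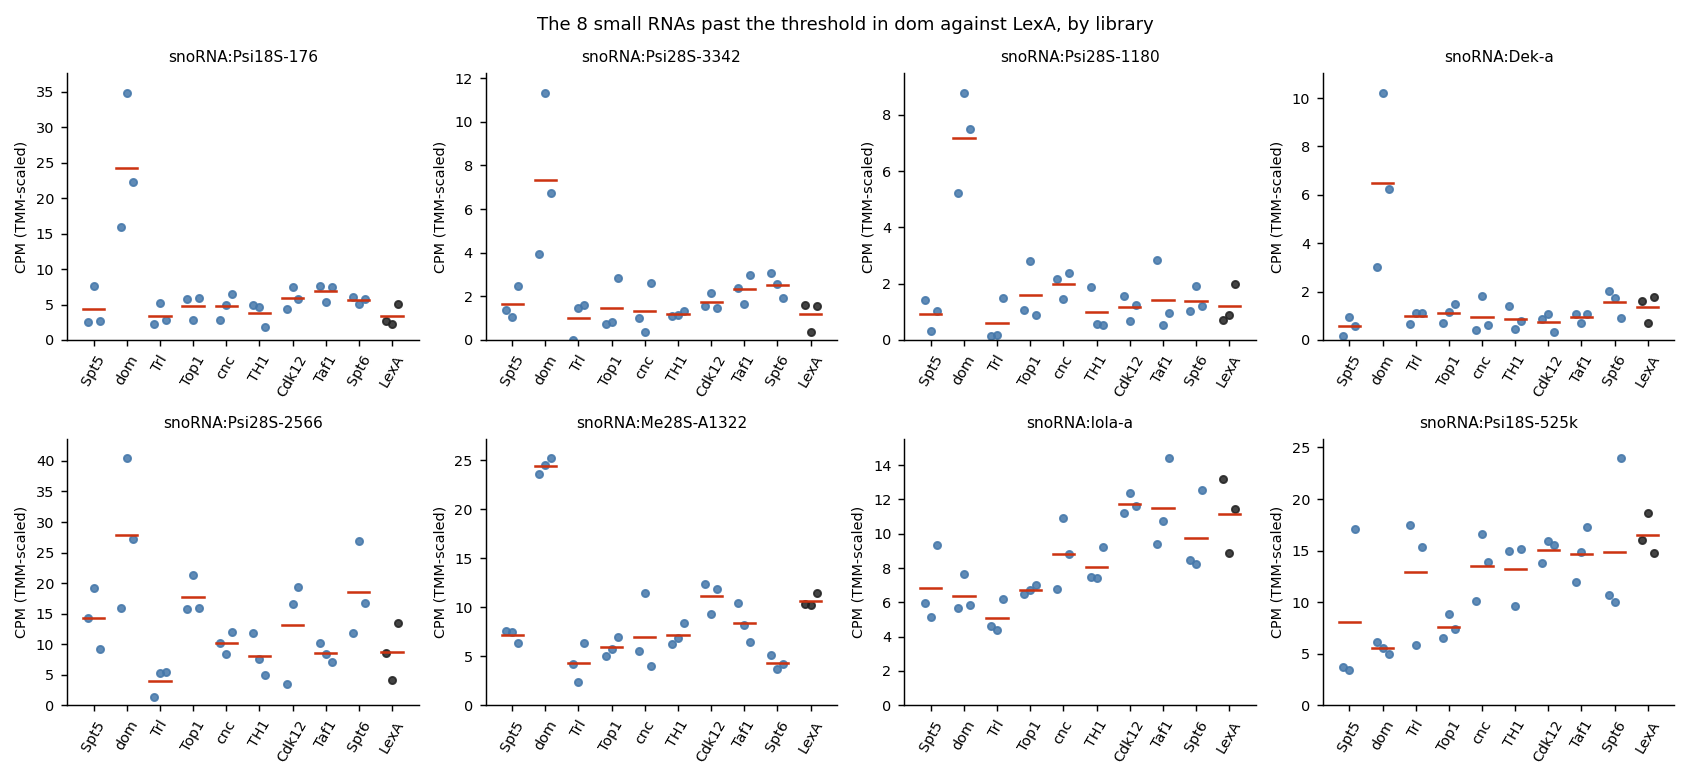
TMM-scaled CPM in each library (points) and group means (red lines) of the 8 small RNAs that passed an adjusted p of 0.05 in dom against LexA, with knockdown groups in blue and LexA in black. In 5 panels, such as Psi18S-176 and Me28S-A1322, the 3 dom libraries lie above all others, while lola-a and Psi18S-525k are low in dom but also in other groups.

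The gene dom itself holds 3 tested snoRNAs in its introns, and their estimates in the dom libraries were negative. Psi28S-3316a was at 0.367, 0.558 and 0.247 CPM in dom and 0.542, 0.531 and 1.38 CPM in LexA. Psi18S-841a was at 0.0917, 0.239 and 0.0823 CPM in dom and 1.62, 0.177 and 0.197 CPM in LexA, and Me28S-A2589c at 0.917, 0.159 and 0.329 CPM in dom and 1.26, 0 and 1.18 CPM in LexA. The log2 fold changes were -1.03, -2.16 and -0.79, none passed the test (adjusted p 0.48, 0.24 and 0.76), and the groups overlapped for each. The exons of dom had a log2 fold change of -0.16 (adjusted p 0.73).

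In Trl, 3 abundant genes of different hosts fell, at 101 to 172 reads outside annotated features per 100 gene counts against 79.3 to 92.4 in LexA. Me28S-A1322 was at 4.21, 2.42 and 6.32 CPM in Trl and 10.3, 10.3 and 11.4 CPM in LexA (change of -1.29 on the log2 scale with SE 0.32 and adjusted p 0.035), the opposite direction to dom. lola-a was at 4.62, 4.36 and 6.2 CPM in Trl and 13.2, 8.86 and 11.4 CPM in LexA (change of -1.13 on the log2 scale with SE 0.27 and adjusted p 0.03). MeU5-C46, with the values above, fell by 1.29 on the log2 scale (SE 0.35 and adjusted p 0.048). The groups did not overlap for any of the 3, and none of the hosts passed the test. The other tested lola snoRNAs had negative estimates without passing. lola-b was at 0, 0 and 0.62 CPM in Trl and 0.903, 1.95 and 1.78 CPM in LexA (adjusted p 0.089). lola-d was at 0.951, 1.45 and 1.12 CPM in Trl and 1.26, 3.72 and 3.75 CPM in LexA (adjusted p 0.19), and its groups overlapped.

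All 3 Trl libraries lay below all LexA libraries for 15 of the 64 genes and above for 1, while 17.3% and 20.0% of all tested genes did so. The 2 positive estimates with the smallest p in Trl were those of Or-ACA8, at 1.36, 3.39 and 1.12 CPM in Trl and 0.903, 0 and 0.395 CPM in LexA (adjusted p 0.30), and Or-CD14, at 1.36, 3.07 and 0.992 CPM against 0.361, 0 and 1.18 CPM (adjusted p 0.30), both without a host. No gene of the 64 passed in Trl when the log2 share of reads outside features entered the fit as a covariate, when libraries were scaled by the relative log expression (RLE) method, or without Trl replicate 1 or 2 or any 1 LexA library. Without the filter on low counts none passed either. Without Trl replicate 3, 7 passed, all lower, a count to which the share of all tested genes from the full fit does not apply. RLE scaling moved the median log2 fold change of all genes in Trl by 0.18 relative to TMM. Markers of outer photoreceptors summed to 41165 to 67665 CPM in Trl and 80922 to 87752 CPM in LexA, with none of the 11 past the threshold by edgeR.

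In Spt5, Psi18S-1377a rose and lola-d fell. Psi18S-1377a, an H/ACA guide paired with 18S ribosomal RNA, lies on the minus strand of 3R at bases 30207745 to 30207883 in the ribosomal protein gene RpS7. It had 17.2, 38.5 and 2.55 CPM in Spt5 against 4.15, 1.24 and 1.97 CPM in LexA (change of 2.97 on the log2 scale with SE 0.70 and adjusted p 0.0057). The rise was in replicates 1 and 2, and replicate 3 lay inside the LexA range. Without Spt5 replicate 2 the log2 fold change was 1.98 (adjusted p 0.093).

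RpS7 holds 4 more tested guides of this kind. Psi18S-1377b was at 20.5, 22.4 and 4.35 CPM in Spt5 and 4.51, 3.01 and 5.92 CPM in LexA (adjusted p 0.059), and Psi18S-1377e at 6.48, 9.03 and 1.61 CPM against 3.07, 0.886 and 0.986 CPM (adjusted p 0.11). The log2 fold changes of the 5 lay between 1.43 and 3.27, and replicate 3 was the lowest Spt5 library for each. Only Psi18S-1377a passed. The exons of RpS7 rose as well, at 376, 379.8 and 151 CPM in Spt5 against 106, 87.3 and 147 CPM in LexA (change of 1.41 on the log2 scale, adjusted p 0.0068). All 11 ribosomal protein hosts rose in Spt5, with log2 fold changes of 1.05 to 1.67, while 11.0% of all tested genes rose. Replicate 3 was again the lowest Spt5 library for each host. It lay inside the LexA range for some, such as RpL3 (223 CPM against 191 to 258 CPM). For others it lay above, such as RpL17 (88.0 CPM against 49.8 to 75.4 CPM). The 16 tested snoRNAs inside these 11 hosts had a median of 0.70 (1 passed).

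lola-d was at 0.59, 0 and 0.284 CPM in Spt5, which are 10, 0 and 3 counts, and at 1.26, 3.72 and 3.75 CPM in LexA (change of -3.15 on the log2 scale with SE 0.68 and adjusted p 0.0040). Every Spt5 library lay below the other 27, of which the lowest was dom replicate 3 at 0.823 CPM. Against the Cdk12 libraries, whose files share the layout of the Spt5 files, the log2 fold change was -1.80 (adjusted p 0.11). With this reference Psi18S-1377a still passed, and Psi18S-1377d passed as well (change of 3.01 on the log2 scale, adjusted p 0.046). lola-a had 5.95, 5.16 and 9.36 CPM in Spt5 and 13.2, 8.86 and 11.4 CPM in LexA (adjusted p 0.061). Without Spt5 replicate 3, whose outer photoreceptor markers were nearest LexA, 7 of the 64 passed. Psi18S-1377a, Psi18S-1377b, Psi18S-1377c and Psi18S-1377e were higher, and lola-d, lola-a and Psi18S-525k lower. The share of all tested genes given above for Spt5 belongs to the fit of all 30 libraries. It is no measure for this count, which describes these genes only. Psi18S-525k was at 3.71, 3.44 and 17.1 CPM in Spt5 and 16.1, 18.6 and 14.8 CPM in LexA, so replicate 3 again stood with LexA. Spt5 replicate 3 also stood nearest LexA in the summed markers of outer photoreceptors and of other neurons, whose part in these results was not tested. Reads that align to several places, which are not counted, stood at 59.2 to 94.5 per 100 gene counts in Spt5 and at 17.7 to 21.7 in LexA, and their part was not tested either. Spt5 libraries lay wholly above LexA for 1 of the 64 genes and below for 6, while 10.0% and 12.3% of all tested genes did so.

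**Figure D3:**
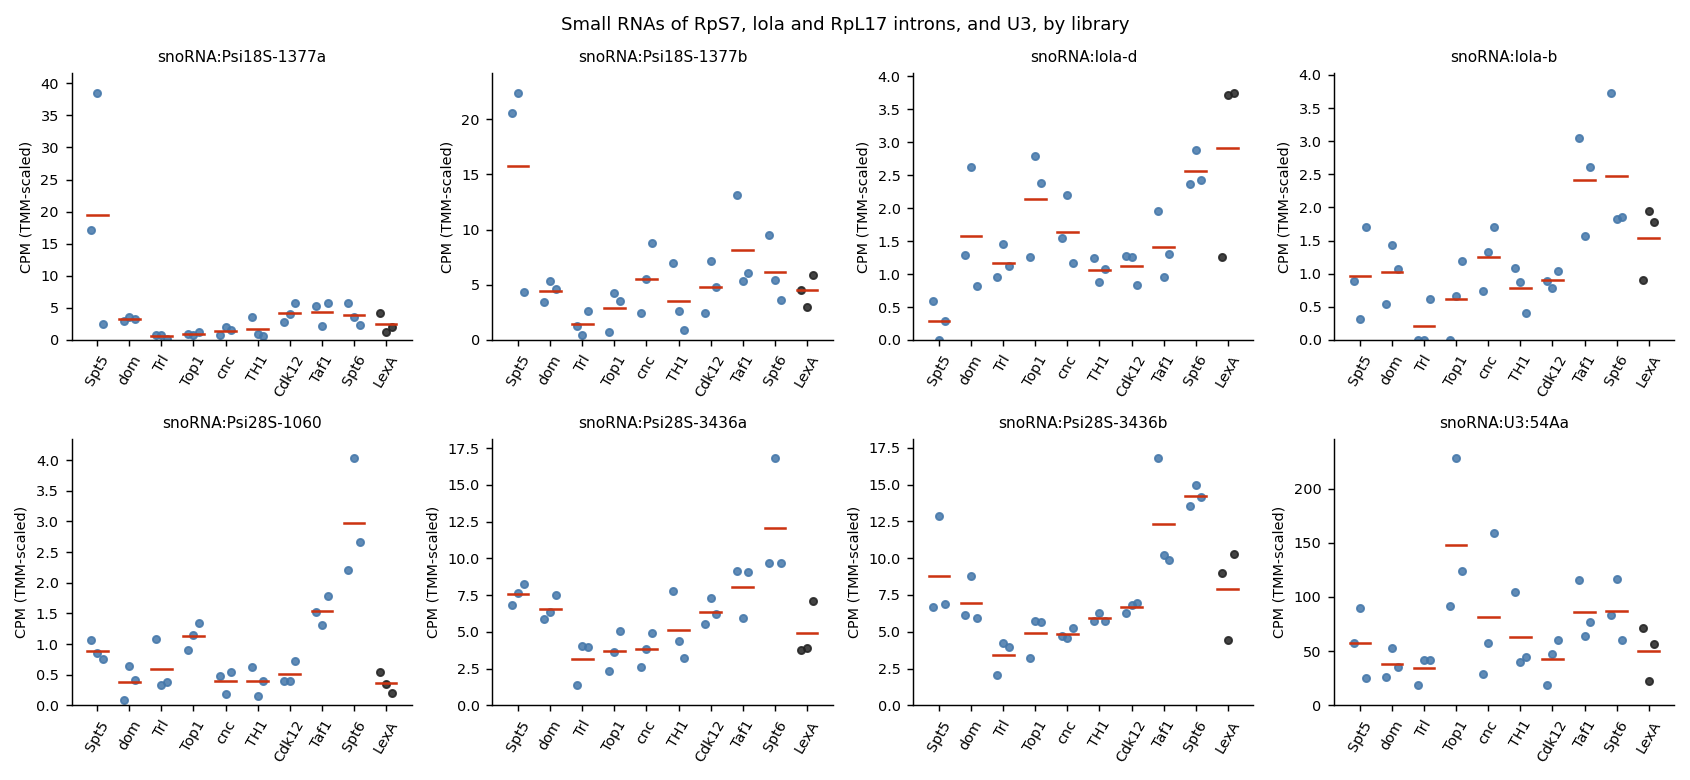
TMM-scaled CPM in each library (points) and group means (red lines) for snoRNAs of RpS7 (Psi18S-1377a and Psi18S-1377b), lola (lola-d and lola-b) and RpL17 (Psi28S-1060, Psi28S-3436a and Psi28S-3436b) and for U3:54Aa; LexA is black. The RpS7 pair is high in Spt5 replicates 1 and 2 but not 3, and Psi28S-1060 and Psi28S-3436a are highest in Spt6.

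None of the 64 passed in the other 6 comparisons with edgeR. The share of all tested genes that passed was 0.43% in Top1, 0.289% in cnc, 0.202% in TH1, 0.195% in Cdk12, 0.148% in Taf1 and 0.107% in Spt6. At an unadjusted p under 0.05 there were 10 in Top1, 2 in cnc, 2 in TH1, 3 in Cdk12, 3 in Taf1 and 5 in Spt6. Of all tested genes, 8.39% did so in Top1, 7.5% in cnc, 4.74% in TH1, 6.68% in Cdk12, 5.53% in Taf1 and 7.35% in Spt6. DESeq2, which left 18 to 54 of the 64 without an adjusted p in these comparisons, called 1 in Spt6, Me28S-A1322, and 0 in the other 5. The shares above are those of edgeR and are no measure for the DESeq2 count, which describes these small RNAs only. Libraries lay wholly above or below LexA for 5 and 6 of the 64 genes in Top1 (8.15% and 8.88% of all genes), 1 and 3 in cnc (6.17% and 7.93%), 0 and 3 in TH1 (7.23% and 7.33%), and 4 and 1 in Cdk12 (9.38% and 9.23%).

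Spt6 is a histone chaperone that travels with the polymerase, and in its libraries 3 of the 4 tested guides of RpL17 had positive estimates, none of which passed. Psi28S-1060 was at 2.2, 4.03 and 2.67 CPM in Spt6 and 0.542, 0.354 and 0.197 CPM in LexA (change of 2.98 on the log2 scale with SE 0.74 and adjusted p 0.18). Psi28S-3436a was at 9.66, 16.8 and 9.71 CPM in Spt6 and 3.79, 3.9 and 7.1 CPM in LexA (change of 1.3 on the log2 scale with SE 0.38 and adjusted p 0.36). For both, the 3 Spt6 libraries lay above all 27 others. Psi28S-3436b was at 13.6, 14.98 and 14.2 CPM in Spt6 and 9.03, 4.43 and 10.3 CPM in LexA, while Psi28S-1232, also in RpL17, was at 1.02, 0.836 and 1.13 CPM against 1.26, 1.95 and 0.592 CPM. Set against the mean of the other 8 knockdown groups in place of LexA, Psi28S-1060, Psi28S-3436a and Psi28S-3436b passed (adjusted p 0.0049, 0.015 and 0.0033), a comparison added after the values had been seen. The exons of RpL17 had a log2 fold change of 0.57 in Spt6 against LexA (adjusted p 0.74).

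Me28S-A1322 was low in Spt6, at 5.08, 3.73 and 4.21 CPM in Spt6 and 10.3, 10.3 and 11.4 CPM in LexA (change of -1.31 on the log2 scale with SE 0.32 and adjusted p 0.16). The next lowest by p was Psi28S-2442a in kra, at 0.339, 0.152 and 1.78 CPM in Spt6 and 0.542, 2.66 and 1.97 CPM in LexA (adjusted p 0.80). Spt6 libraries lay wholly above LexA for 8 of the 64 genes and below for 2, against 7.02% and 6.2% of all tested genes.

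With Taf1, a subunit of the general initiation factor TFIID, Psi28S-1060 was again wholly above LexA, with 1.53, 1.31 and 1.78 CPM in Taf1 and 0.542, 0.354 and 0.197 CPM in LexA (change of 2.03 on the log2 scale with SE 0.75 and adjusted p 0.60). Psi18S-176 was at 7.63, 5.41 and 7.5 CPM in Taf1 against 2.71, 2.3 and 5.13 CPM (adjusted p 0.86), wholly above LexA as well. Taf1 libraries lay wholly above LexA for 8 of the 64 genes and below for 0, against 7.13% and 7.28% of all tested genes. Towards lower levels, lola-d had 1.96, 0.96 and 1.31 CPM in Taf1 against 1.26, 3.72 and 3.75 CPM, and CG32479-a, in an intron of Usp10, had 2.18, 3.84 and 5.24 CPM against 9.75, 2.66 and 6.71 CPM. Both had an adjusted p of 1.0.

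With Top1, the topoisomerase that relaxes DNA in front of the polymerase, U3:54Aa and U3:54Ab gave the smallest p towards higher levels. U3:54Aa was at 91.2, 228 and 124 CPM in Top1 and 71.3, 22.3 and 56.2 CPM in LexA (change of 1.56 on the log2 scale with SE 0.56 and adjusted p 0.37), and the groups did not overlap. U3:54Ab was at 13.2, 30.4 and 20.8 CPM in Top1 and 14.3, 5.14 and 11.2 CPM in LexA (change of 1.07 on the log2 scale with SE 0.47 and adjusted p 0.54). The third copy, U3:9B, was at 3.07, 1.48 and 2.83 CPM in Top1 and 7.94, 1.77 and 1.97 CPM in LexA, with a lower mean in Top1. In a fit of the 6 libraries alone, U3:54Aa passed (adjusted p 0.019), as did the lower Psi18S-525k, at 6.49, 8.87 and 7.44 CPM in Top1. lola-a at 6.49, 6.74 and 7.0 CPM and Me28S-A1322 at 5.05, 5.75 and 7.0 CPM in Top1 lay below all LexA libraries, with adjusted p of 0.41 and 0.43.

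In cnc, a stress response transcription factor, the Hrb98DE guide Psi28S-3405c was at 0.943, 1.95 and 1.98 CPM in cnc and 0.542, 0.531 and 0.789 CPM in LexA (adjusted p 0.69), and the kra guide Psi28S-3571 at 0.337, 1.13 and 1.98 CPM against 0.903, 0 and 0.197 CPM (adjusted p 0.78). Or-CD14 was at 0, 0.126 and 0 CPM in cnc and 0.361, 0 and 1.18 CPM in LexA (adjusted p 0.61), and Psi28S-3436b at 4.71, 4.6 and 5.27 CPM against 9.03, 4.43 and 10.3 CPM (adjusted p 0.64). The groups overlapped for 3 of these 4, and Psi28S-3405c was the exception.

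TH1 is a subunit of the pausing factor NELF. There Psi28S-3405c was at 2.95, 1.16 and 0.67 CPM in TH1 and 0.542, 0.531 and 0.789 CPM in LexA, and Psi18S-1377c at 0.155, 0.582 and 0.268 CPM in TH1 and 0.181, 0.177 and 0 CPM in LexA. CG32479-a was at 4.66, 1.02 and 1.74 CPM in TH1 and 9.75, 2.66 and 6.71 CPM in LexA, and lola-d at 1.24, 0.874 and 1.07 CPM in TH1 and 1.26, 3.72 and 3.75 CPM in LexA. Their adjusted p lay between 0.77 and 0.999, and the groups overlapped for all but lola-d.

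For Cdk12, a kinase of the polymerase tail, Tudor-SN-a was at 19.9, 37.6 and 44.5 CPM in Cdk12 and 13.9, 5.85 and 27.02 CPM in LexA. Psi18S-176, with no host, was at 4.32, 7.5 and 5.82 CPM in Cdk12 and 2.71, 2.3 and 5.13 CPM in LexA. The estimates of U3:9B, at 2.16, 1.66 and 1.04 CPM in Cdk12 and 7.94, 1.77 and 1.97 CPM in LexA, and of lola-d, at 1.28, 1.27 and 0.831 CPM in Cdk12 and 1.26, 3.72 and 3.75 CPM in LexA, were negative. The adjusted p of the 4 lay between 0.67 and 0.81, and the groups overlapped for each. LexA replicates 2 and 3 were the high libraries for lola-d in each of these comparisons.

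**Figure D4:**
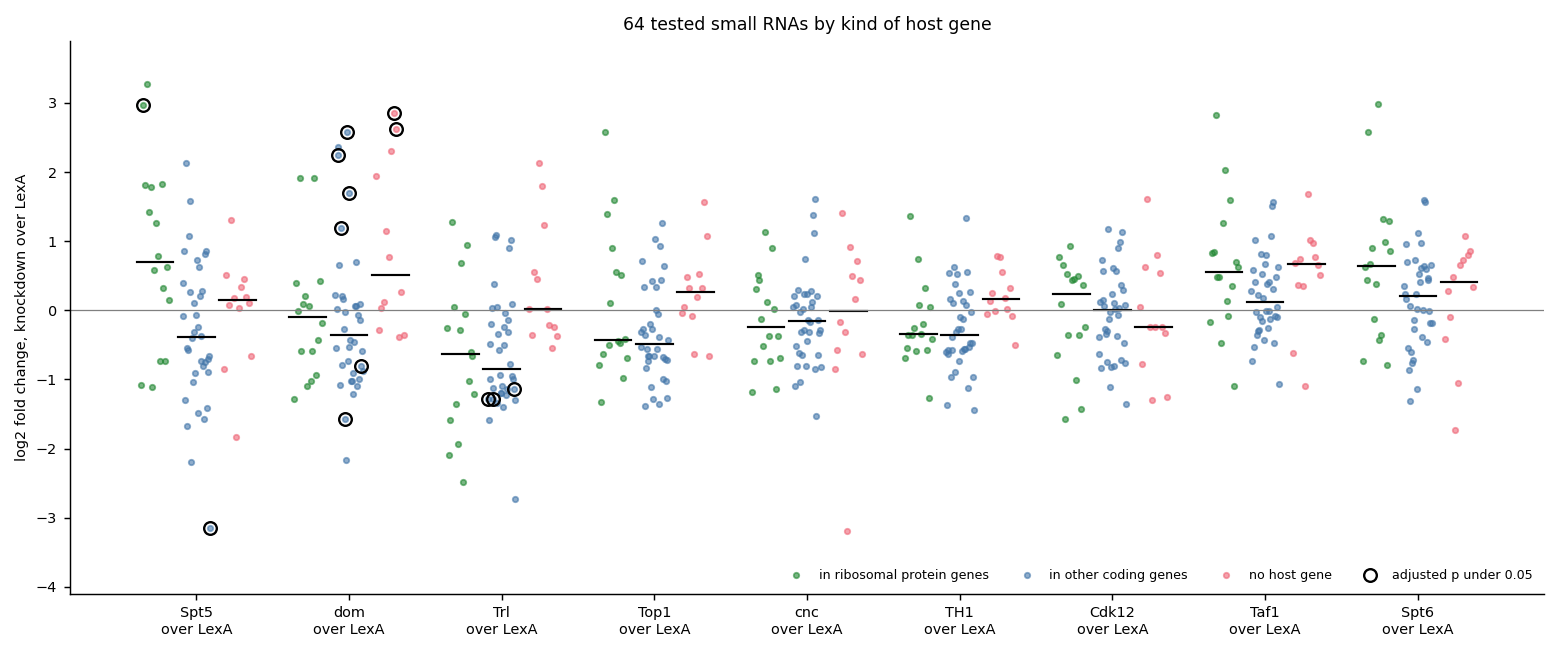
Log2 fold change of each of the 64 tested small RNAs (points) in the 9 comparisons of a knockdown over LexA, coloured by the kind of host gene, with the median of each kind (black line) and a ring around those with an adjusted p under 0.05. Rings occur in Spt5 (2), dom (8) and Trl (3). The ribosomal protein set has its highest median, 0.70, in Spt5, with 0.65 in Spt6 and 0.55 in Taf1 close to it and negative medians in dom, Trl, Top1, cnc and TH1.

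A test for any difference among the 10 groups, which does not lean on LexA alone, called 17 of the 64 (26.6%), while 29.1% of all tested genes passed. Me28S-A1322 led, with an adjusted p of 4.6e-06 (group means from 4.32 CPM in Trl to 24.4 CPM in dom and 10.7 CPM in LexA), followed by Psi18S-176 (5.0e-05) and Psi18S-1377a (9.2e-05). Next came the RpL17 guides Psi28S-3436b (4.8e-04), Psi28S-1060 (0.0042) and Psi28S-3436a (0.0047), with Dek-a (0.0015) and Psi28S-2566 (0.0058). Psi28S-3436b averaged 14.2 ± 0.714 CPM in Spt6, 12.3 ± 3.9 CPM in Taf1, 3.4 ± 1.19 CPM in Trl, and 7.9 ± 3.07 CPM in LexA (SD, n = 3 each). The LexA mean thus lay between those of Taf1 and Trl for this guide.

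The kind of host went with different medians in different comparisons. Medians of the log2 fold change in dom were 0.51 for the 12 tested genes with no host, -0.35 for the 36 in other coding genes and -0.09 for the 16 in ribosomal protein genes. The same medians were 0.02, -0.85 and -0.63 in Trl and 0.14, -0.39 and 0.70 in Spt5. For the 16 in ribosomal protein genes, the median was also positive in Spt6 (0.65), Taf1 (0.55) and Cdk12 (0.23). It was negative in cnc (-0.25), TH1 (-0.35) and Top1 (-0.43). Among the 16 in ribosomal protein genes, 12 had the sign of their host in Spt5, 7 in dom and 12 in Trl. Among the 36 in other coding genes, 26, 24 and 29 did so in the same 3 comparisons. These are not separate cases, since small RNAs of the same host are set against the same host estimate. RpS7 holds 5 of the 16 and RpL17 holds 4, while Hrb98DE and kra hold 5 each of the 36. In Spt5 every ribosomal protein host rose, so the 12 there are the guides with a positive estimate. Each small RNA shares its library and its locus with its host, and many of these estimates rest on few counts. Of the 6 genes that rose in dom, 4 have a host, and none of these hosts passed the test. In Spt5 the host of Psi18S-1377a rose.

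**Figure D5:**
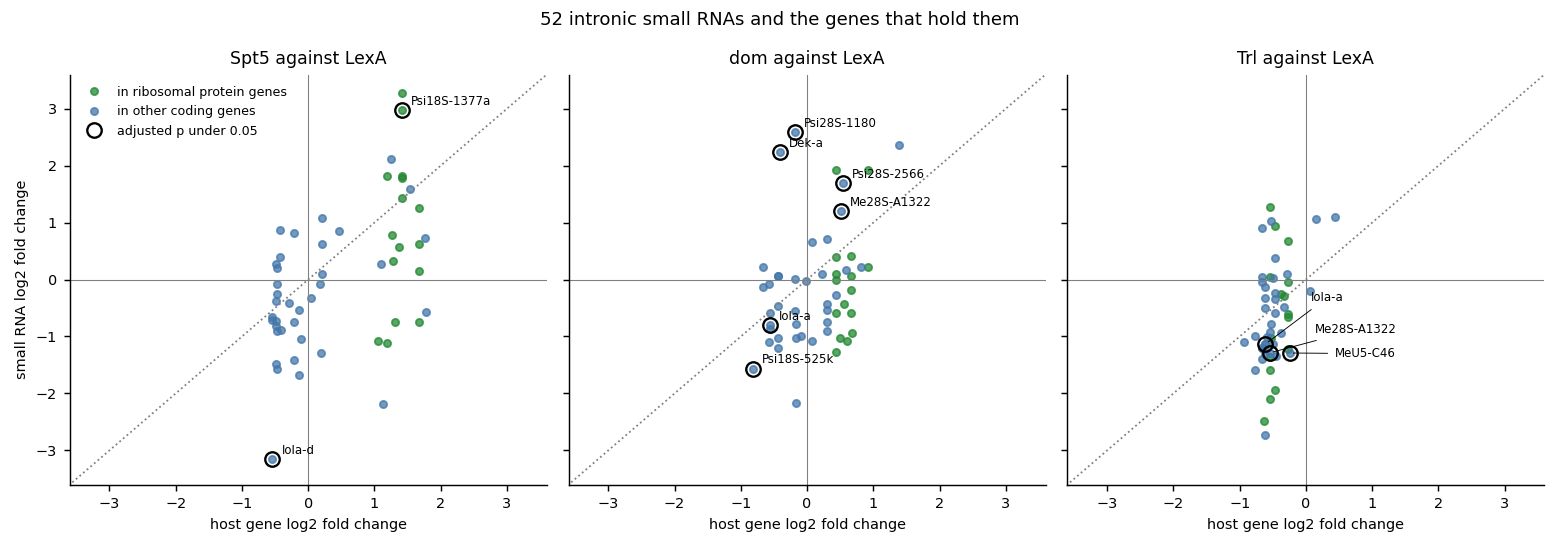
Log2 fold change of 52 intronic small RNAs (vertical axis) against that of the gene whose intron holds them (horizontal axis) in Spt5, dom and Trl over LexA; the dotted line marks equal change and rings mark an adjusted p under 0.05. Psi28S-1180 and Dek-a in dom lie far above the line at host changes of -0.19 and -0.41, and the ribosomal protein genes in Spt5 all lie at host changes of 1.05 or more.

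The genes for proteins that bind and mature snoRNAs stand beside a share of all tested genes that passed of 16.5% in Spt5, 10.4% in dom, 2.55% in Trl and 0.107% to 0.43% in the other 6 comparisons. None of the 8 tested core proteins of C/D and H/ACA particles passed in any of the 9 comparisons. Of 9 assembly factors, CG10341 fell in Trl (change of -1.16 on the log2 scale, adjusted p 0.017), cnc (-1.43, adjusted p 0.0025) and TH1 (-1.15, adjusted p 0.039). In dom, 1 of 11 genes of the Cajal body, SMN complex and histone locus body fell, Phax (-0.81, adjusted p 0.029), known from mammals as an adaptor that carries small nuclear and nucleolar precursors, and 1 of 18 genes of processing and turnover fell, Ars2 (-0.72, adjusted p 0.021), a partner of the nuclear cap-binding complex. Of 20 genes of RNA polymerase I and the nucleolus, the nucleolar GTPase Non1 (1.55, adjusted p 0.0040) and Nnp-1 (0.78, adjusted p 0.04) rose in Spt5, and in Trl Nnp-1 rose (1.19, adjusted p 0.022) and Nmd3, an export adaptor of the large ribosomal subunit, fell (-1.01, adjusted p 0.049).

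Among the noncoding snoRNA host genes, 6 were tested and Uhg5 passed in 2 comparisons. These 6 are not among the annotated hosts of the 76 small RNAs, of which 1 had a noncoding host and was not tested. Uhg5 was at 2.84, 2.39 and 3.21 CPM in dom and 14.98, 8.15 and 17.0 CPM in LexA (change of -2.24 on the log2 scale with SE 0.49 and adjusted p 0.0033). It was at 2.04, 1.94 and 1.49 CPM in Trl (change of -2.87 on the log2 scale with SE 0.52 and adjusted p 0.0043). The groups did not overlap in either comparison. LexA also lay wholly above Top1, TH1, Spt6, Taf1 and cnc for Uhg5. The log2 fold changes there were -1.73, -1.73, -1.59, -1.43 and -1.43, and none passed (adjusted p 0.155 to 0.474). In Spt5 and Cdk12 they were -0.30 and -0.46, and the groups overlapped. A low Uhg5 relative to the shared LexA libraries was therefore not particular to dom and Trl.

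Of 22 other small noncoding RNAs tested, 3 passed in Spt5 and 2 in dom, counts near the 16.5% and 10.4% of all tested genes that passed there. In Trl 2 passed, while 2.55% of all genes did, and 1 passed in each of Top1, cnc, TH1 and Taf1, where 0.148% to 0.43% of all genes did. The histone processing RNA snRNA:U7 was lower in Trl (change of -4.42 on the log2 scale, adjusted p 0.0018), TH1 (-4.11, adjusted p 0.0040), cnc (-3.02, adjusted p 0.024) and Top1 (-2.83, adjusted p 0.047). snRNA:7SKa, which restrains an elongation kinase, rose in dom (2.87, adjusted p 9.1e-04) and snRNA:U2:34ABc fell there (-1.44, adjusted p 0.036). In Spt5 the signal recognition particle RNAs 7SLRNA:CR32864 (2.22, adjusted p 0.018) and 7SLRNA:CR42652 (1.95, adjusted p 0.022) and RNaseMRP:RNA (1.37, adjusted p 0.027) rose, and 7SLRNA:CR32864 fell in Trl (-2.69, adjusted p 0.034). snRNA:U2:34ABa rose in Taf1 (5.86, adjusted p 1.2e-05). Copies of U2 and of 7SL are near-identical, so the split of their reads is uncertain.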

How the data were processed

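Nuclear RNA of 30 libraries (10 groups of 3) was measured by RNA-seq from 10 ng of RNA with depletion of fly ribosomal RNA, per the labels' protocols. The deposited values are whole-number counts per gene. Trimmomatic 0.39, HISAT2, HTSeq and the build BDGP6 are named, per the submitters' processing notes, as what the authors used. No strand setting or annotation release is given in the sources used here. Each file's 5 summary rows and its transgene rows stayed out of library sizes and tests. Symbols, hosts and positions came from an Ensembl annotation of BDGP6, which named 17710 of the 17807 gene rows.

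Counts were fitted with edgeR 4.0.16 in R 4.3.3, using its filter by expression (minimum count 10, minimum total 15), TMM scaling, all 30 libraries in 1 fit and two-sided quasi-likelihood F tests. Benjamini-Hochberg adjustment ran over 14888 genes. For each log2 fold change, a standard error (SE) was derived as the absolute change over the root of F. TMM library sizes gave the CPM. DESeq2 1.42.0, RLE scaling, no filter, a replicate block, a background covariate, library sizes without small RNAs, other reference libraries, the 6 compared libraries alone and leaving out each library were alternatives. The fit was tested on simulated data. Reads carry no molecular identifiers, so precision from depth covers counting error only.

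The genes named were the 10 highest per kilobase, every scaRNA, up to 8 called per direction and comparison (where none was called, 2 by unadjusted p), up to 8 by the test among groups, their hosts, the noncoding hosts, the targets and up to 4 called genes per direction of each pathway list. Other snoRNAs of the same host, and those in introns of dom, were added after their values were seen. The small RNAs and the lists were chosen with earlier results of these data known. In no comparison did all 3 same-numbered pairs have a correlation over 0.1 between their deviations from the group means, so the numbers were not taken as pairs.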

Additional observations from a re-analysis of the deposited data

Results flagged for a closer look

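Reads that aligned to several places, which the counts leave out, stood out in 2 groups. They made up at least 59.2 per 100 gene counts in every Spt5 library and at least 72.9 in every Cdk12 library, against 17.7 to 21.7 in LexA. Every library of both groups was above 2 times the highest LexA library. Small RNA genes with several near-identical copies, such as U3, are those whose reads this row can hold. The part of these reads in the Spt5 and Cdk12 results was not tested. The files of these 2 groups also share a layout, whose part was not tested either. Groups of 3 libraries were too small for a test of single outlying samples.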

How the results depend on the processing

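The count of 8 in dom stayed within 1.5 times under every setting except leaving out a library (range 2 to 7), and was 10 against the mean of the other 8 knockdown groups, a reference added after the data had been seen. In Spt5 the count of 2 became 5 with the replicate block, 4 with DESeq2, 0 in a fit of the 6 libraries alone, and 7 against the other 8 knockdown groups, and leaving out a library gave 1 to 7. In Trl the count of 3 became 0 with no filter, 0 with RLE scaling, 0 with the background covariate, 5 with DESeq2, 16 against the other 8 knockdown groups, and 0 to 7 when a library was left out. The block gave 4 in Trl and 8 in dom, and changed no count of the other 6 comparisons. Those stayed at 0 when a library was left out; other settings gave 2 in Top1 for the 6 libraries alone, 1 in Spt6 with DESeq2, and 3 in Spt6 and 1 in Taf1 against the other 8 knockdown groups. DESeq2 left 30 of the 64 small RNAs in Spt5, 39 in dom and 0 in Trl without an adjusted p, and these enter no count of lost calls. The 17 varying among groups became 31 with DESeq2, and 14 to 21 without a library. Against the other 8 knockdown groups, Psi18S-1377c in TH1 (-0.58) and lola-d in Taf1 (0.12) changed sign, and neither had passed against LexA. The counts under other settings stand here without the share of all tested genes that passed there, so they describe these small RNAs only. For the settings that moved a count, the cause was not tested. The same-number correlations between deviations lay between -0.25 and 0.25. With a median of 14.1 counts per library, the median SE of the tested small RNAs was 0.74 to 0.78 on the log2 scale over the 9 comparisons. Changes well above this size also missed the threshold, such as 2.98 for Psi28S-1060 in Spt6.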
